A study of Homo sapiens with 6 samples.

Results

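MicroRNA precursor loci were examined in MDA-MB231 cells, a human triple-negative breast cancer line. The table of 57445 genes held 1325 loci whose symbol begins with MIR and a number or with MIRLET7 and does not end in HG, the ending of host genes. The 42 loci described here were selected on their measured level, which had to reach 1 TPM in 3 or more of the 6 libraries (TPM, transcripts per 1000000, is a level scaled for gene length and for the library total). They made up 3.17% of the loci. Of the rest, 1034 were listed at 0 in all 6 libraries and 249 were above 0 in at least 1 library without reaching the limit.

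MicroRNAs are short RNAs that lower the translation and stability of messenger RNAs. They are cut from longer primary transcripts, first by DROSHA with DGCR8 in the nucleus into a hairpin, then by DICER1 in the cytoplasm, and one strand is loaded into an Argonaute protein, where its seed, bases 2 to 8, pairs with targets. Many hairpins lie in introns or exons of other genes, their hosts, and are transcribed with them.

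Cells were infected with a lentiviral pGIPZ vector that held either a non-silencing shRNA (shCTL, 3 libraries) or an shRNA against Ror1, a receptor of non-canonical Wnt signaling (shRor1, 3 libraries). Both groups were selected with 2 µg/ml puromycin, and each rests on 1 shRNA. The labels call the RNA poly(A) and the control an empty vector, whereas the methods name a stranded kit for total RNA and single reads of 50 bases. Nothing states that the libraries came from separate cultures, so p-values measure only the spread between these libraries. Mature microRNAs are too short for such a library, and the values concern RNA that covers the precursor loci, with the RNA of a host included where reads cannot be told apart.

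The shCTL libraries held ROR1 at 15.42, 13.49 and 20.56 TPM, and the shRor1 libraries at 9.34, 11.93 and 14.85 TPM. The mean was lower in shRor1 (12.04 ± 2.76 against 16.5 ± 3.65 TPM, SD, n = 3 each), but the groups overlapped, and the exact two-sided permutation test gave p = 0.2, where 0.1 is the smallest value that 3 against 3 libraries allow. The paper reports the knockdown with a Western blot of Ror1 protein. VIM, a mesenchymal marker, stood at 2399 to 2920 TPM, ESR1, the estrogen receptor, at no more than 0.21 TPM, and PTPRC, a leukocyte marker, at no more than 0.39 TPM, while COL1A1, listed as a stromal marker, reached 7.25 to 13.87 TPM. Of the markers listed as low in this line, PGR (up to 0.01 TPM) and CDH1 (up to 1.47 TPM) were near 0, but ERBB2 (26.55 to 34.9 TPM), EPCAM (12.58 to 15.8 TPM), FOXA1 (3.72 to 5.45 TPM) and GATA3 (3.83 to 4.69 TPM) were not.

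The sequences below identify mature products of loci among the most abundant, among those known in breast cancer and among those whose groups did not overlap. RefSeq (GRCh38.p14) held a hairpin for 34 of the 42 loci, and 44 of their 45 mature sequences were found letter for letter in the GRCh37 locus. The seed is in capitals.
hsa-miR-3655: gCUUGUCGcugcgguguugcu
hsa-miR-1181: cCGUCGCCgccacccgagccg
hsa-miR-3615: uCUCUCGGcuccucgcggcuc
hsa-miR-4292: cCCCUGGGccggccuugg
hsa-miR-4737: aUGCGAGGaugcugacagug
hsa-miR-324-5p: cGCAUCCCcuagggcauuggug
hsa-miR-1184: cCUGCAGCgacuugauggcuucc
hsa-miR-647: gUGGCUGCacucacuuccuuc
hsa-miR-25-3p: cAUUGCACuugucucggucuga
hsa-miR-221-3p: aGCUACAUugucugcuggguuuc
hsa-let-7d-5p: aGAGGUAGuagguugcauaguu
hsa-miR-635: aCUUGGGCacugaaacaaugucc
hsa-miR-616-3p: aGUCAUUGgaggguuugagcag
Among the 34 loci with a mature sequence, the seed of miR-1184 was the only one that more than 1 locus carried. It came from 3 copies, MIR1184-1, MIR1184-2 and MIR1184-3. The other 42 of the 43 distinct seeds belonged to 1 locus each. Seeds of the remaining loci were not compared.

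The measured unit was the whole hairpin gene and not the mature strand. The precursor of MIR25, with both mature strands in capitals, shows the difference in size.
MIR25 precursor: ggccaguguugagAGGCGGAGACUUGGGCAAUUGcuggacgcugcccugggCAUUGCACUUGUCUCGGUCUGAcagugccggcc
The 42 loci were 57 to 120 bases long (median 86.5), little more than a read of 50 bases, with a GC content of 29.8 to 74.4% (median 56.6%).

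Levels were low for most loci. The mean over the 6 libraries reached 5 TPM in 12 loci, 10 TPM in 4 and 100 TPM in 0, and 14 loci were listed at 0 in at least 1 library. The median of the mean levels was 2.15 TPM, beside 13.0 TPM over all 16554 genes that met the same limit. Summed TPM of the 42 loci was 245 ± 12.7 in shCTL and 231 ± 39.1 in shRor1 (SD, n = 3 each), and the 4 most abundant loci held 56.2% of it. The limit of 1 TPM fell among close values, since the third-highest library of MIR4784 and of MIR937, just inside, read 1.04 TPM, and that of MIR4754 and of MIR4449, just outside, read 0.98 and 0.96 TPM.

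**Figure D1:**
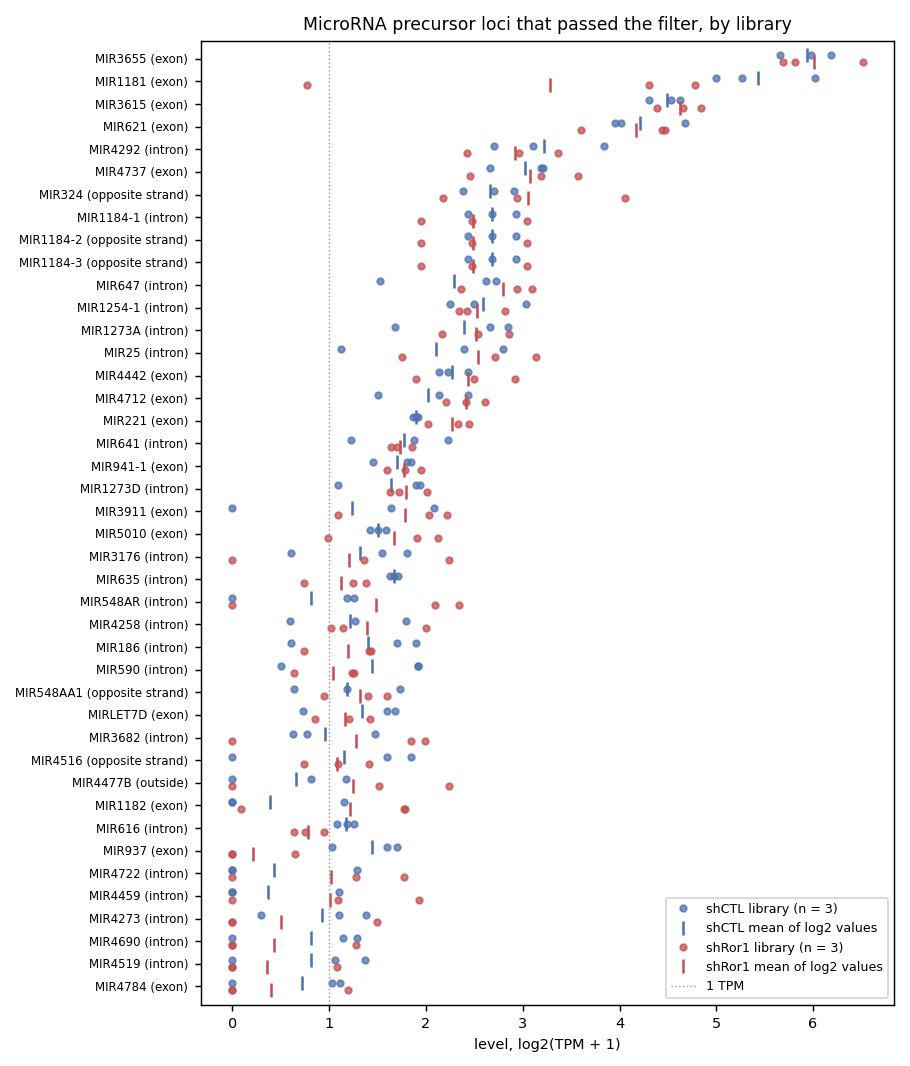
Level of each of the 42 loci in each of the 6 libraries, as log2(TPM + 1), ordered by mean TPM, with points for libraries, ticks for the mean of the 3 libraries of a group, and the position of the locus relative to other genes in brackets. MIR3655 is highest, most loci lie near the dotted line at 1 TPM, and the 2 groups overlap in 37 of the 42 loci.

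Low TPM values in short RNA genes fell on steps that match whole reads. After multiplication by an effective length (gene length minus 37 bases), 82.0 to 84.8% of the values that lay between 0.5 and 4.5 steps of a library were within 0.1 of a whole number, depending on the library. By this step, 1 read on a gene of 80 bases was worth 0.591, 0.644 and 0.771 TPM in shCTL and 0.646, 0.946 and 0.763 TPM in shRor1. The depth implied for shRor1 was 0.862 of that of shCTL, and the second shRor1 library was the shallowest. Of the 106 values of the 42 loci in the same range, 93 were whole within 0.1 reads. The step was fitted to short RNA genes, most of these loci among them, so neither share is a separate check of it. The sum over all 6 libraries ran from 3 reads to 568 reads per locus with a median of 23.5, was 20 reads or fewer in 19 loci and over 100 reads in 4. Counts below are read equivalents by this step, and intervals on them cover counting error only.

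**Figure D2:**
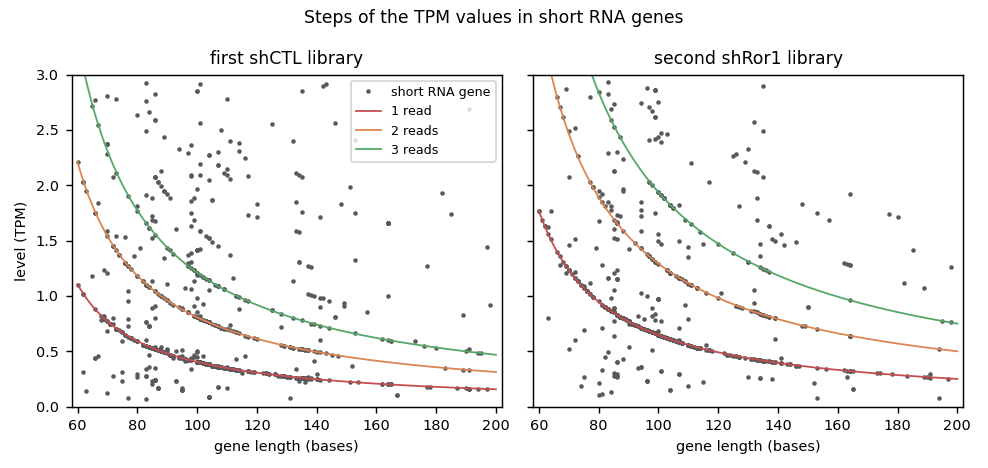
TPM of short RNA genes up to 3 TPM against gene length in bases, for the first shCTL and the second shRor1 library, with the level that 1, 2 and 3 reads give drawn as lines. Many genes lie on the lines, and the line for 1 read is higher in the second shRor1 library (0.946 against 0.591 TPM at 80 bases).

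Loci within an exon passed the level filter more often than loci elsewhere. By the annotation, 15 of 186 loci in an exon on the same strand (8.07%), 21 of 764 in an intron (2.75%), 5 of 175 that lay opposite another gene only (2.86%) and 1 of 198 outside other genes (0.505%) were among the 42. These shares describe the loci that the level chose and carry no test. Where the host was at 100 TPM or more, 3 of 32 exonic (9.38%) and 5 of 37 intronic loci (13.5%) passed. At 10 to 100 TPM it was 8 of 67 exonic (11.9%) and 12 of 243 intronic loci (4.94%), and at 1 to 10 TPM 4 of 37 exonic (10.8%) and 2 of 181 intronic loci (1.10%). Where the host was under 1 TPM, 0 of 37 exonic and 2 of 269 intronic loci did (0.743%). Whether reads at an intronic locus came from the hairpin or from unspliced host RNA cannot be told apart.

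MIR3655 was the most abundant locus. It lies at chr5:140027429-140027511 (GRCh37, plus strand), where the start of IK, a gene of a splicing factor, is annotated as 5' UTR and coding sequence. It read 61.94, 49.63 and 71.69 TPM in shCTL and 55.23, 50.52 and 90.45 TPM in shRor1. The third shRor1 library was highest, the groups overlapped, and the log2 fold change (shRor1 minus shCTL, on the log2(TPM + 1) scale that understates changes of low genes) was 0.06 ± 0.23 (SE). Its level was 49.3% of that of IK, and IK differed by -0.04 ± 0.08.

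MIR3615 lies at chr17:72744752-72744838 (plus strand) and shares 82.8% of its length with the 5' UTR of NHERF1, which encodes a scaffold for membrane proteins. It read 22.13, 18.81 and 23.76 TPM in shCTL and 19.91, 24.25 and 27.73 TPM in shRor1. The groups overlapped at a log2 fold change of 0.14 ± 0.14, with NHERF1 at 0.04 ± 0.15.

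MIR621 lies in the 3' UTR of SLC25A15, a mitochondrial ornithine transporter, and stood at 112% of its level. It was among the only 3 loci above a host that met the level limit. MIR1273A (mean 4.715 TPM) and MIR4273 (0.798 TPM) also exceeded hosts that did not meet it, RGS22 (0.192 TPM) and LINC00960 (0.595 TPM). MIR621 read 24.52, 14.54 and 15.19 TPM in shCTL and 21.2, 20.67 and 11.11 TPM in shRor1, so the groups overlapped. MIR4737, in the 3' UTR of HEATR6, read 8.11, 8.26 and 5.32 TPM and then 10.88, 8.11 and 4.49 TPM, again with overlap, and some of its 50-base windows (18.8%) occur elsewhere in the genome.

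Among intronic loci MIR4292 in RABL6, a Rab-like GTPase gene, was most abundant, at 7.61, 5.53 and 13.27 TPM in shCTL and 9.27, 6.78 and 4.37 TPM in shRor1. MIR647 in UCKL1, a uridine kinase-like gene, read 5.16, 1.88 and 5.62 TPM and then 7.54, 4.13 and 6.66 TPM. MIR1254-1 in CCAR1, a regulator of cell division and apoptosis, read 4.65, 3.75 and 7.19 TPM and then 6.02, 4.07 and 4.37 TPM. All 3 overlapped between the groups. They stood at 10.6%, 7.95% and 4.06% of their host.

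MIR324, which lies opposite ACADVL, a gene of mitochondrial fatty acid oxidation, read 5.52, 4.21 and 6.49 TPM in shCTL and 6.65, 3.53 and 15.67 TPM in shRor1. The third shRor1 library was far above the second, and the groups overlapped at a log2 fold change of 0.39 ± 0.42. ACADVL stood at 271 ± 58.4 and 307 ± 47.2 TPM (SD, n = 3 each). Whether the authors' counting used strand is not given in the sources used here, so reads of opposite genes may not be told apart.

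MIR1184-1, MIR1184-2 and MIR1184-3 on the X chromosome were listed with the same value in each library, 6.61, 5.43 and 4.4 TPM in shCTL and 7.22, 2.86 and 4.55 TPM in shRor1. Every 50-base window of these loci occurs 3 times in the genome, so the 3 rows share their reads and hold 1 measurement. Counts of loci and summed TPM in this report include all 3 rows. MIR1184-1 lies in an intron of F8, the gene of coagulation factor VIII, and each copy lies opposite an exon of F8A1, F8A2 or F8A3. In all, 33 of the 42 loci had no repeated window and 9 had at least 1, among them MIR941-1 and MIR4273 with all windows repeated and MIR1273A with a window found up to 168 times.

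No locus passed the adjusted threshold. With limma on all 16554 genes and Benjamini-Hochberg adjustment, 0 of the 42 loci were called at an adjusted p below 0.05 (smallest adjusted p = 0.984), beside 0% of all genes. At an unadjusted p below 0.05, 1 locus was higher (MIR221) and 3 were lower in shRor1 (MIR937, MIR635, MIR616), beside 2.85% of all genes (382 higher and 90 lower). With quantile normalization MIR221 no longer passed this limit (limma, unadjusted p = 0.0811, adjusted p = 0.999). On the same terms MIR1181 passed it on the lower side (limma, unadjusted p = 0.0492, adjusted p = 0.999). The groups did not overlap in 5 loci, these 4 and MIR1181, or 11.9% of the 42 beside 7.78% of all genes. By direction, 1 locus was higher and 4 were lower in shRor1, whereas 1073 of all genes were higher and 215 lower. MIR937 and MIR616 had passed the level filter through the shCTL libraries alone, so a lower level in shRor1 followed from the selection. The log2 fold change was above 0 in 22 loci (52.4%) and below 0 in 20, beside 67.0% above 0 over all genes, with a median of 0.06 beside 0.05. With quantile normalization 20 loci and with median ratio scaling 21 loci were above 0, beside 50.4% and 50.2% of all genes. The loci spread more widely than other genes, with a median within-group SD of 0.52 beside 0.15 on the log2 scale and a median absolute log2 fold change of 0.31 beside 0.09.

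MIR1181 had a log2 fold change of -2.15 ± 0.95 (SE, limma, unadjusted p = 0.0555, adjusted p = 0.984). It lies at chr19:10514134-10514214 (minus strand), across the start of the coding sequence of CDC37, a co-chaperone of HSP90. It read 37.51, 63.85 and 30.95 TPM in shCTL and 18.69, 0.71 and 26.41 TPM in shRor1. In read equivalents this was 65, 101 and 41 against 30, 1 and 35, a ratio of 0.37 (95% exact interval 0.276 to 0.49). That interval covers counting error and not the spread between libraries. All 3 shRor1 libraries lay below the lowest shCTL library, and the second shRor1 library, at 0.77 read equivalents, was far below the others. Without that library the log2 fold change was -0.89. CDC37 stood at 361.6 ± 19.97 TPM in shCTL and 337 ± 48.7 TPM in shRor1, with overlap, and the log2 ratio of MIR1181 to CDC37 was lower by 2.03 in shRor1 with no overlap (exact permutation p = 0.1), and the difference was -0.839 without the second shRor1 library. How RSEM divided the reads of this exon between the locus and CDC37 was not tested.

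MIR937, in SCRIB, the gene of a cell polarity scaffold, read 1.04, 2.26 and 2.03 TPM in shCTL and 0.57, 0 and 0 TPM in shRor1. In reads this was 2, 4 and 3 against 1, 0 and 0, a ratio of 0.129 after allowance for depth (95% exact interval 0.00294 to 0.93). The log2 fold change was -1.23 ± 0.25 (limma, adjusted p = 0.984). Since the locus entered through its 3 shCTL libraries, these values describe what was selected and test nothing. SCRIB differed by 0.01 ± 0.08.

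MIR635, in an intron of WIPI1, an autophagy gene, read 2.08, 2.27 and 2.18 TPM in shCTL and 1.37, 0.67 and 1.61 TPM in shRor1. In reads this was 5, 5 and 4 against 3, 1 and 3, a ratio of 0.58 (95% exact interval 0.198 to 1.53) that includes 1. The log2 fold change was -0.54 ± 0.18, and -0.35 without the second shRor1 library. WIPI1 was at 31.2 ± 5.71 and 38.2 ± 9.03 TPM, and the log2 ratio of locus to host was lower by 0.82 in shRor1 with no overlap.

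MIR616, in an intron of DDIT3, a stress-induced transcription factor, read 1.27, 1.38 and 1.11 TPM in shCTL and 0.93, 0.68 and 0.55 TPM in shRor1. These were 3, 3 and 2 reads against 2, 1 and 1, at a ratio of 0.58 (95% exact interval 0.128 to 2.16), and MIR616 too had entered through shCTL alone. DDIT3 overlapped between the groups (37.3 ± 8.98 and 36.2 ± 8.07 TPM).

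MIR221 was the locus that was higher in shRor1 without overlap. Its mature product is known as abundant in basal-like breast cancer cells and targets the cell cycle inhibitor CDKN1B. It read 2.78, 2.65 and 2.73 TPM in shCTL and 3.05, 4.46 and 4.04 TPM in shRor1, a log2 fold change of 0.37 ± 0.14 (limma, unadjusted p = 0.0345, adjusted p = 0.984). In reads this was 8, 7 and 6 against 8, 8 and 9, a ratio of 1.38 (95% exact interval 0.742 to 2.59). Its host transcript MIR222HG, with reads over a longer gene, was also higher in every shRor1 library, at 7.45, 8.24 and 7.68 TPM against 8.3, 10.77 and 9.25 TPM (log2 fold change 0.24 ± 0.12, limma, adjusted p = 0.984). The closest values, 8.24 and 8.3 TPM, nearly met, on a scale where 67.0% of all genes were above 0. The median ratio scaling factors of their libraries were 0.9526 and 0.9993, and whether the groups overlap after scaling was not tested. The neighbouring MIR222 had a mean of 0.0933 TPM, above 0 in the second shRor1 library only.

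**Figure D3:**
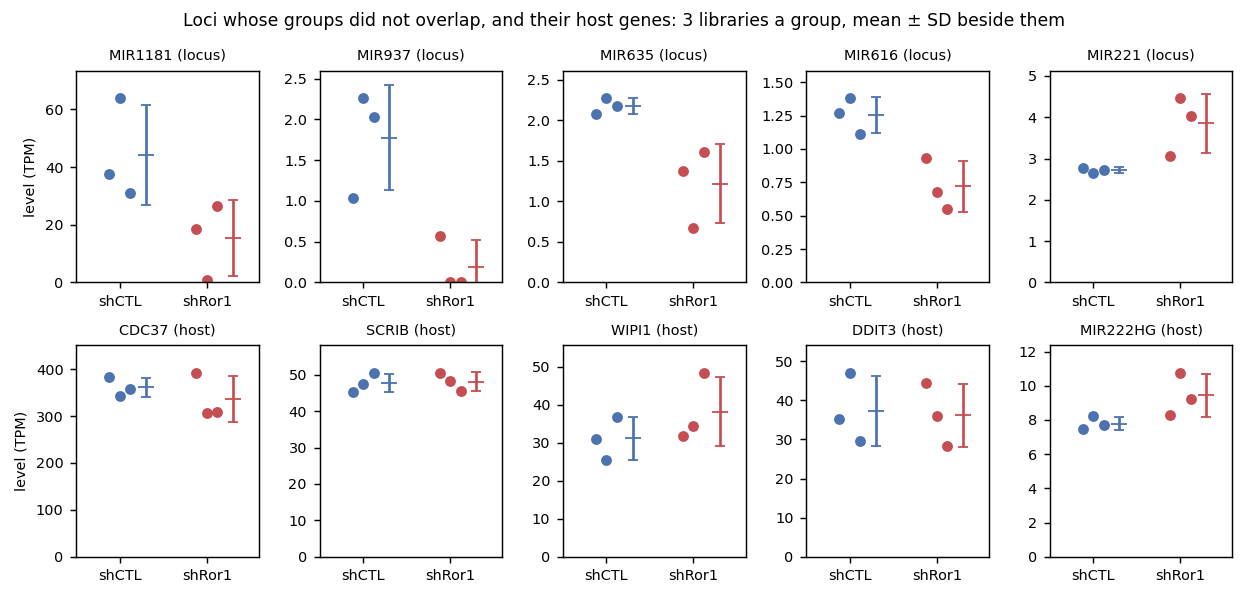
TPM of the 5 loci whose groups did not overlap (top) and of their host genes (bottom) in the 3 libraries of each group, with mean ± SD beside the points and axes from 0. MIR1181, MIR937, MIR635 and MIR616 are lower and MIR221 is higher in shRor1. Of the hosts shown only MIR222HG shows no overlap, narrowly (8.24 against 8.3 TPM at the closest).

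MIR25 and MIRLET7D were the other loci of a list of microRNAs known in breast cancer. MIR25, in an intron of MCM7, a subunit of the replicative helicase, read 5.94, 1.18 and 4.24 TPM in shCTL and 2.37, 7.78 and 5.58 TPM in shRor1, with overlap. MCM7 was lower in every shRor1 library, at 283, 283 and 288 against 276, 253 and 263 TPM (log2 fold change -0.11 ± 0.06, limma, adjusted p = 0.984). The cluster partners of MIR25 in the same intron, MIR93 and MIR106B, had means of 1.19 and 0.58 TPM and were not among the 42. MIRLET7D, of the let-7 family that targets RAS genes and HMGA2, read 2.03, 2.21 and 0.66 TPM in shCTL and 1.67, 0.81 and 1.31 TPM in shRor1, again with overlap. Of the 80 listed loci 60 were found, 3 were among the 42, 16 were above 0 without passing, and 41 were at 0 in all 6 libraries, including MIR21, MIR31, MIR10B and MIR200C. MIR30A, from whose precursor the hairpin backbone of pGIPZ derives, was also at 0.

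Of the remaining named loci, MIR1182 in FAM89A and MIR4712 in GABPB1-AS1 overlapped between the groups. MIR1182 read 0, 0 and 1.23 TPM in shCTL and 2.44, 2.41 and 0.06 TPM in shRor1, and the last value is less than 1 read. MIR4712 read 3.38, 1.84 and 4.42 TPM in shCTL and 4.32, 3.61 and 5.1 TPM in shRor1. GABPB1-AS1, the antisense RNA that holds it, was higher without overlap, at 12.68, 11.11 and 12.1 against 13.8, 15.43 and 16.54 TPM (log2 fold change 0.32 ± 0.11, limma, unadjusted p = 0.0159, adjusted p = 0.984). The 22 loci outside the rule for named loci had mean levels from 0.582 to 4.71 TPM and log2 fold changes from -0.45 to 0.67, and all overlapped between the groups.

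Host genes were mostly more abundant and had smaller fold changes than the loci. In 31 of 34 pairs of locus and tested host the locus was below its host, at a median of 5.99% of its level, and the 3 others were MIR621, MIR1184-1 and MIRLET7D. The 34 hosts had a median absolute log2 fold change of 0.07, with 21 above 0 (61.8%, beside 67.0% of all genes) and 13 below. Limma called 0 of them, with 1 at an unadjusted p below 0.05 (GABPB1-AS1), a share close to the 2.85% of all genes. Without overlap, 3 hosts were higher (GABPB1-AS1, MIR222HG and CCAR1) and 1 was lower in shRor1 (MCM7). This was 11.8% of the hosts beside 7.78% of all genes, of which 1073 were higher and 215 lower. Locus and host had the same sign in 19 of the 34 pairs, and the log2 ratio of locus to host did not overlap between the groups in 3, those of MIR1181, MIR635 and MIR937. The ratio of MIR937 was lower through its selection, and such ratios have no counterpart over all genes.

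**Figure D4:**
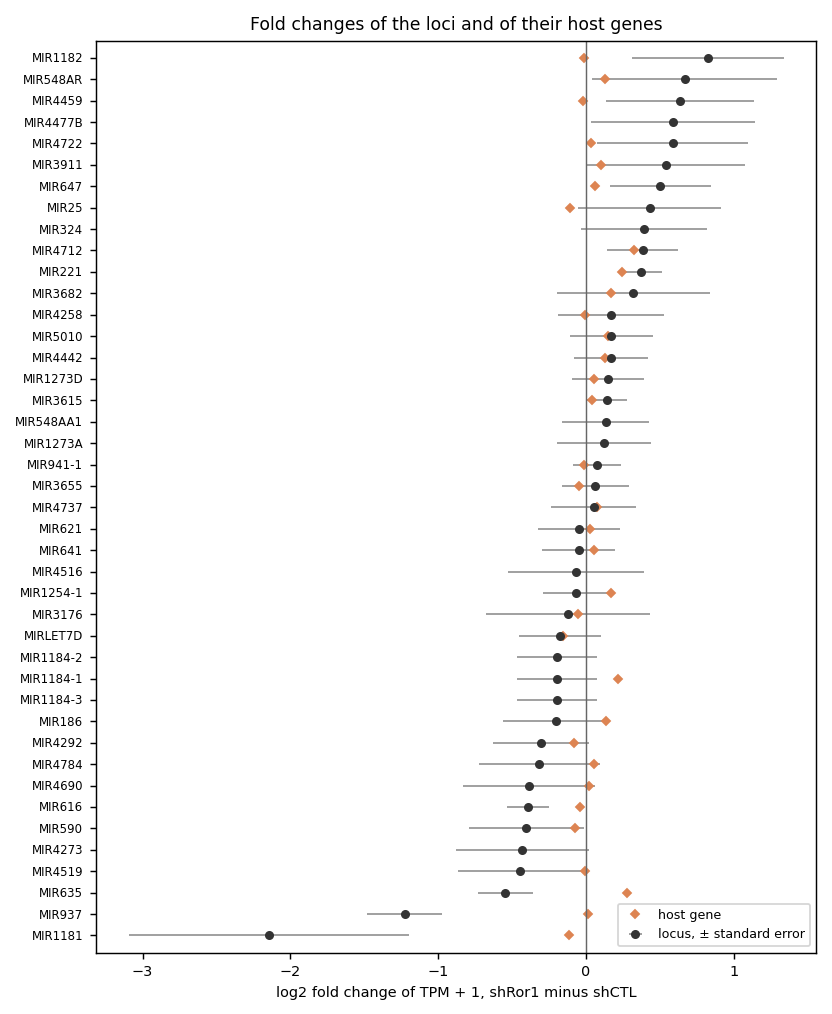
Log2 fold change of TPM + 1 (shRor1 minus shCTL) of the 42 loci with its standard error, ordered by value, and of their host genes where tested. Hosts lie between -0.15 and 0.32, whereas the loci run from -2.15 (MIR1181) to 0.83 (MIR1182).

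Levels of most genes that make and use microRNAs were close in both groups. Of 33 listed genes 31 were tested, limma called 0, and 2 passed an unadjusted p of 0.05, both higher in shRor1, beside 2.85% of all genes, most of which were likewise higher. These were TUT4, which adds uridines to precursors (log2 fold change 0.28 ± 0.10), and DDX17, a helicase of the DROSHA complex (0.27 ± 0.11). Without overlap, 2 tested genes were higher in shRor1 (TUT4 and PRKRA) and 0 lower, or 6.45% beside 7.78% of all genes. DROSHA (75.3 ± 5.68 and 76.9 ± 3.03 TPM), DICER1 (19.4 ± 1.71 and 19.7 ± 0.873 TPM) and AGO2 (38.7 ± 4.10 and 38.7 ± 3.65 TPM) overlapped between the groups. LIN28B, which blocks let-7 maturation, was at 0 in every library. LIN28A, below the level limit and not tested, read 0.33, 0.39 and 0.42 TPM in shCTL and 0.46, 0.61 and 0.47 TPM in shRor1.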

How the data were processed

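The authors mapped reads to GRCh37 with STAR and Ensembl 73 and estimated abundances with RSEM (1.2.5 per the submitters' processing notes, which also name CASAVA 1.8.2, FastQC 0.10.0 and edgeR). The deposited table, although called expected counts, holds TPM per gene that sum to 1000000 per library. These values do not state depth, and the depth used above was inferred from the read step. The study lists mapped reads per replicate, which the column headers do not tie to single columns. The 6 columns carry only their condition, and libraries are numbered by column order. The control header also holds the word DMSO, which the labels do not. Unused per-sample columns numbered 0.

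A gene was fitted if 3 or more libraries reached 1 TPM (16554 genes). The model, limma 3.58.1 in R 4.3.3 on log2(TPM + 1), followed the mean-variance trend, used the Benjamini-Hochberg method at 0.05 and was checked on simulated data, where it recovered few or none of the changes set in short genes of low level. A count model was not used, since the values are TPM. Symbols matched 55022 of 57445 identifiers. Positions and hosts came from GENCODE 44 on GRCh37 coordinates, which is later than the annotation of the authors. A host spans the whole locus on the same strand, or overlaps it by an exon (MIR3615, MIR4442). Loci on 1 strand within 10000 bases formed a cluster.

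Named loci are the 12 with the highest mean TPM, the 8 with the smallest unadjusted p, those on a list known in breast cancer, and their hosts. Members and lists were chosen with earlier results of these data known. The read step was fitted to short RNA genes of each library.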

Additional observations from a re-analysis of the deposited data

How the results depend on the processing

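Under the 14 other settings of the fit, limma called 0 of the 42 loci, and the smallest adjusted p of a locus was 0.44, without the first shRor1 library. ROR1 was lower in shRor1 in the main fit (log2 fold change -0.4251, limma, unadjusted p = 0.06495, adjusted p = 0.9844) and in every other setting. Its unadjusted limma p was 0.01509 with quantile normalization and 0.02325 with median ratio scaling (adjusted p = 0.9993 and 0.9984). Without the first shRor1 library it was 0.2073 (limma, adjusted p = 0.6248). Of 20 named loci, 10 kept 1 direction in every setting that tested them (the 8 named loci with a mean under 5 TPM were not tested under that minimum) and 10 changed sign in at least 1. The copies of MIR1184, which hold 1 measurement, each count among the loci that changed sign. With a minimum mean of 5 TPM, which left 12 loci, 5 were higher in shRor1. With 1 library left out, the median log2 fold change of the loci ran from -0.0978 (without the second shCTL library) to 0.1416 (without the third), and 16 to 26 loci were higher. MIR4737 turned to -0.0297 with quantile normalization and to -0.0003 with median ratio scaling, and with 1 library left out it ran from -0.1973 to 0.3595. On the same terms MIR621 ran from -0.1983 to 0.2389, MIR3655 from -0.1903 to 0.2236, MIR25 from -0.0572 to 0.8232, MIR4292 from -0.5554 to 0.0085, MIR1254-1 from -0.2399 to 0.153, each of MIR1184-1, MIR1184-2 and MIR1184-3 from -0.4713 to 0.0739, and MIR324 from -0.1062 to 0.8336. The cause was not tested. The median of all genes, 0.0545, was 0.0015 with quantile normalization and 0.0006 with median ratio scaling. With a pseudocount of 0.1 the log2 ratio of locus to host was compared between the groups. The difference, shRor1 minus shCTL, was -1.152 for MIR635, 2.098 for MIR1182, -0.7054 for MIR616 and -3.259 for MIR937. A gap of 50000 bases made 9 clusters with a locus of the 42, beside 6. Without the hosts that overlap by an exon alone, MIR3615 and MIR4442 had no host. No paired analysis was possible because the column headers give a condition and no replicate number. Count models were not run, as the values are TPM. With a median of 23.5 reads per locus over 6 libraries, counts were low for most loci. The read intervals given above surround the observed ratios, cover counting error only and set no limit of detection.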

Other observations

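Outside the 42 loci, MIR4449, just below the level limit, was listed at 0 in all 3 shCTL libraries and at 0.96, 1.4 and 1.13 TPM in shRor1. MIR93, the cluster partner of MIR25, read 0.59, 0 and 0.77 TPM in shCTL and 0.65, 2.84 and 2.29 TPM in shRor1, with overlap. MIRLET7DHG, a noncoding gene opposite MIRLET7D, read 0.5, 0.46 and 0.5 TPM in shCTL and 0.83, 0.81 and 1.43 TPM in shRor1, with no overlap (exact permutation p = 0.1, the smallest that 3 against 3 libraries allow). It was not among the genes tested with limma. These rows were chosen after their values were seen.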
